A study of Caenorhabditis elegans with 96 samples.

Results

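The genes described are 8 genes of the mitochondrial unfolded protein response in the nematode Caenorhabditis elegans, taken as a list of names from 46904 gene identifiers. They are the chaperone genes hsp-6 and hsp-60, the protease genes lonp-1 and clpp-1, the transporter gene haf-1, and the regulator genes atfs-1, dve-1 and ubl-5. All 8 were found by symbol and all 8 passed the filter on low counts in each comparison.

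The mitochondrial unfolded protein response is a program of nuclear transcription that is switched on when mitochondrial proteins fail to import, fold or assemble. In C. elegans the transcription factor ATFS-1 is normally imported into mitochondria and degraded, and it moves to the nucleus when import fails. DVE-1 and its partner UBL-5 act with it, and hsp-6 and hsp-60 are the genes most often used to read the response.

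RNA was sequenced from whole animals of 85 recombinant inbred advanced intercross lines and of the parents they descend from. N2 is the laboratory reference strain and CB4856 is a wild isolate from Hawaii, and each line is a mosaic of the genomes of the parents. There were 4 libraries of N2, 7 of CB4856 and 1 of each line, in 7 batches that the sample titles number 2, 3, 4, 6, 7, 8 and 9. CB4856 was in every batch, N2 was in batches 3, 6, 8 and 9, and each batch held 7 to 19 lines. Every group had the same handling per the labels. Animals were raised on Escherichia coli OP50 and hatched without food to synchronise them. They were then fed E. coli HT115 with a treatment label of "Cntrl" and harvested after 50 h. The labels give the stage as L4, the last larval stage. No group carried a mutation, a transgene or a stress treatment in the labels, so the values compare genotypes with no labelled stress.

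Levels are given as CPM, the count of a gene scaled to a library of 1000000 gene counts, and the totals ranged from 22069702 to 24001627. A line had 1 library, so its value has no replicate error. The libraries of a strain are repeated samples whose independence the labels do not state, and p-values measure the spread between them. The N2 library of batch 9 stood apart from the other N2 libraries. On the first principal component of the lines it lay at -49.98, while the other N2 libraries lay between 8.81 and 42.4 and the CB4856 libraries between -54.05 and -6.77. Differences between the parents are given with and without it where it moved them.

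All 8 genes are protein coding, and their positions are on WBcel235. The gene hsp-6 (WBGene00002010) is on chromosome V from 4824124 to 4826760, on the minus strand. The gene hsp-60 (WBGene00002025) is on III from 1619742 to 1625803, plus strand, and lonp-1 (WBGene00016391) is on I from 10676922 to 10682374, minus strand. The gene clpp-1 (WBGene00014172) is on II from 10300714 to 10302842, minus strand, and haf-1 (WBGene00001811) is on IV from 17376427 to 17379310, plus strand. Among the regulators, atfs-1 (WBGene00013878) is on V from 14193663 to 14197700, plus strand. The gene dve-1 (WBGene00022861) is on X from 427035 to 433812, minus strand, and ubl-5 (WBGene00006726) is on I from 5607826 to 5608841, minus strand. The 8 genes therefore lie on all 6 nuclear chromosomes. The exons of haf-1 overlap those of C30H6.9 on the opposite strand over 64 bases, 3.04% of its exon length, and reads there cannot be assigned without strand. The exons of the other 7 overlap no other gene.

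Per kilobase of exon, the chaperones were the most abundant of the 8 and haf-1 the least. In N2, hsp-6 was at 221 ± 16.6 CPM per kb and hsp-60 at 178.9 ± 30.6 (SD, n = 4 each). They were followed by atfs-1 at 54.4 ± 9.29, ubl-5 at 41.9 ± 5.83, lonp-1 at 31.2 ± 1.17, clpp-1 at 30.2 ± 1.12, dve-1 at 6.03 ± 2.36 and haf-1 at 2.52 ± 0.512 CPM per kb. The order of the mean level per kb was the same in CB4856 and in the lines. Among N2 libraries, neighbours in this order overlapped for hsp-6 and hsp-60, for atfs-1 and ubl-5, and for lonp-1 and clpp-1. In CB4856 hsp-6 (265 to 292.2 CPM per kb) did not overlap hsp-60 (134.1 to 250.7), while ubl-5 (30.25 to 46) overlapped lonp-1 (34.65 to 38.4).

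**Figure D1:**
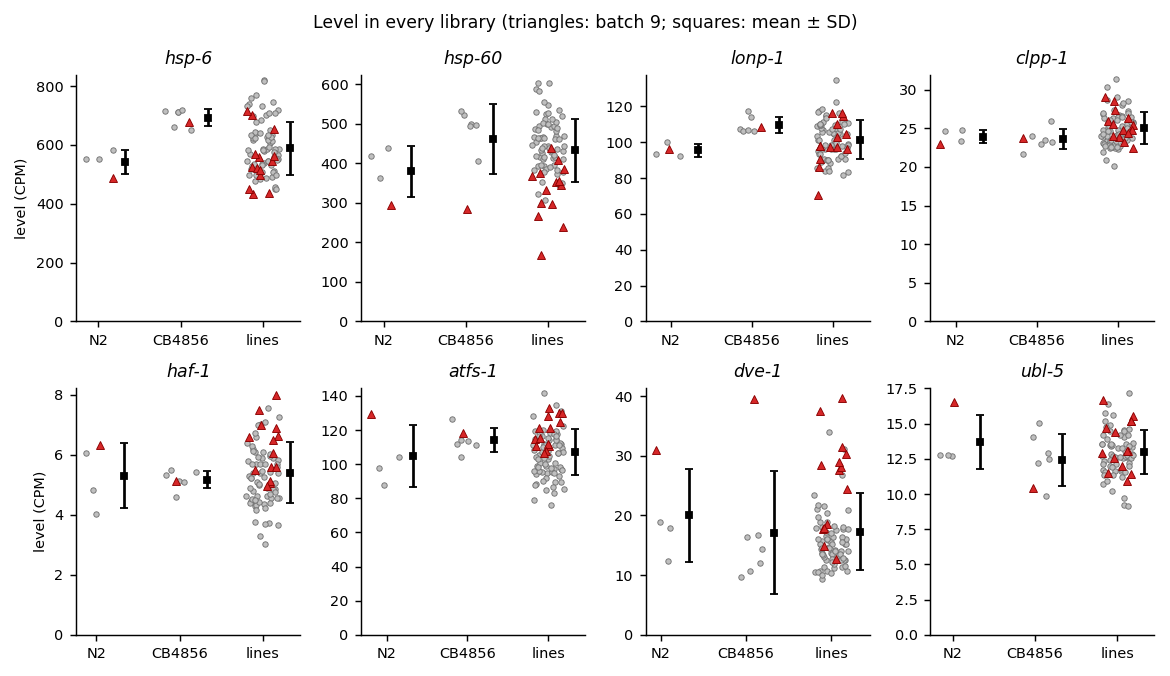
Level of each of the 8 genes in CPM (y axis, linear from 0) in every N2 library (n = 4), CB4856 library (n = 7) and line (n = 85). Circles are libraries, triangles are libraries of batch 9 and squares with bars are the mean ± SD. The parents separate for hsp-6 and lonp-1 and overlap for the other 6, and the share of all genes that separate was not computed. The batch 9 libraries sit low for hsp-60 and high for dve-1.

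The parents were compared to ask whether the 2 genomes set different levels of these genes. The mitochondrial Hsp70 gene hsp-6, whose product drives import and folding in the matrix, was higher in CB4856. It was at 551.9, 583.3, 552.5 and 486.5 CPM in the N2 libraries of batches 3, 6, 8 and 9. The CB4856 libraries ranged from 652 to 718.8 CPM with a median of 711. Every CB4856 library was above every N2 library. The share of all genes whose parental libraries separate in this way was not computed, here or for the genes below. The means were 543.6 ± 40.8 CPM in N2 (SD, n = 4) and 692.6 ± 28.5 in CB4856 (SD, n = 7), a 1.31-fold difference. The log2 difference was 0.39 with a standard error of 0.069 and an adjusted p of 0.00163 in edgeR's quasi-likelihood test with Benjamini-Hochberg adjustment over 14858 genes. Within the batches that hold both parents, CB4856 over N2 was 0.37, 0.29, 0.37 and 0.48 on the log2 scale in batches 3, 6, 8 and 9. Without the N2 library of batch 9, the lowest of N2, the log2 difference was 0.34 (adjusted p 0.00347, edgeR). In whole animals, fewer cells that express a gene and less of its RNA per cell cannot be told apart.

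The chaperonin gene hsp-60, which encodes the folding chamber of the matrix, did not pass the test. Its N2 libraries were at 419.9, 439.3, 364 and 294.9 CPM in batches 3, 6, 8 and 9. Its CB4856 libraries ranged from 284.4 to 531.8 CPM with a median of 496.4. The lowest library of each parent was that of batch 9, and the ranges overlapped. The log2 difference was 0.32 (SE 0.17, adjusted p 0.164, edgeR). Within batches 3, 6 and 8 it was 0.31, 0.17 and 0.55, and within batch 9 it was -0.05. Without the CB4856 library of batch 9 the log2 difference was 0.41 with an adjusted p of 0.0227 in edgeR, and without both parental libraries of batch 9 it was 0.31 with an adjusted p of 0.0298. Without the N2 library of batch 9 alone it was 0.22 with an adjusted p of 0.349 in edgeR.

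Of the proteases, lonp-1, which encodes the Lon protease of the matrix that degrades imported ATFS-1, was higher in CB4856. Its N2 libraries were at 100.2, 92.1, 93.4 and 96.1 CPM in batches 3, 6, 8 and 9. Its CB4856 libraries ranged from 106 to 117.6 CPM with a median of 107.3, so the parents did not overlap. The difference was 1.18-fold, 0.24 on the log2 scale with a standard error of 0.056 (adjusted p 0.0075, edgeR). Within batches it was 0.19, 0.20, 0.19 and 0.17. With batch as a replicate block the log2 difference was 0.21 and the adjusted p 0.0729 in edgeR, which ended the call. With the first principal component of the lines as a covariate it was 0.20 with an adjusted p of 0.0504 in edgeR. Apart from the N2 library of batch 9, that component separated the parents, so such a fit cannot fully tell strain from component.

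The gene clpp-1 encodes the proteolytic subunit of the ClpP protease of the matrix. It was at 23.4, 24.8, 24.6 and 22.97 CPM in the N2 libraries and between 21.7 and 25.9 CPM in CB4856, with a median of 23.4. The ranges overlapped almost entirely, with a log2 difference of 0.02 (SE 0.076, adjusted p 0.879, edgeR). The gene haf-1 encodes a transporter of the inner membrane that exports peptides from the matrix. Its N2 libraries were at 6.06, 4.02, 4.83 and 6.33 CPM, and its CB4856 libraries ranged from 4.61 to 5.49 CPM with a median of 5.13. All CB4856 values lay inside the N2 range, and the log2 difference was -0.0016 (SE 0.145, adjusted p 0.995, edgeR). Without the N2 library of batch 9 it was 0.096 (adjusted p 0.638, edgeR). At this level a parental library held 94 to 149 reads of haf-1.

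Among the regulators, atfs-1 encodes the transcription factor that carries the signal to the nucleus. It was at 104.2, 87.7, 97.6 and 129.6 CPM in the N2 libraries of batches 3, 6, 8 and 9, and between 104.4 and 126.7 CPM in CB4856, with a median of 113.3. The N2 library of batch 9 was above every CB4856 library and the other 3 were below all of them. The log2 difference was 0.16 (SE 0.092, adjusted p 0.195, edgeR). Without that N2 library it was 0.28 with an adjusted p of 0.00603, and without both batch 9 libraries it was 0.28 with an adjusted p of 0.00906 in edgeR. Adjusted for component 1 it was 0.02 with an adjusted p of 0.891 in edgeR. That N2 library, at -49.98, was the only one of N2 on the CB4856 side of component 1. The adjustment therefore leans on it and cannot tell strain from component. The difference within batches 3, 6 and 8 was 0.09, 0.35 and 0.22 on the log2 scale, and within batch 9 it was -0.13.

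The homeodomain gene dve-1 was the least even of the 8 among repeated libraries. It was at 12.3, 18.9, 17.8 and 30.9 CPM in N2 and between 9.67 and 39.6 CPM in CB4856, with a median of 14.3. Its highest library in each parent was that of batch 9. The log2 difference was -0.19 (SE 0.375, adjusted p 0.718, edgeR), and within batches it was -0.35, -0.65, -0.31 and 0.36. It was -0.55 without the CB4856 library of batch 9 (adjusted p 0.0959, edgeR) and 0.09 without the N2 library of batch 9 (adjusted p 0.868, edgeR). The gene ubl-5 encodes a small ubiquitin-like protein. It was at 12.8, 12.7, 12.8 and 16.6 CPM in N2 and between 9.89 and 15 CPM in CB4856, with a median of 12.5. The parents overlapped, and the log2 difference was -0.11 (SE 0.127, adjusted p 0.545, edgeR). Without the N2 library of batch 9 it was 0.0023 (adjusted p 0.991, edgeR).

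In all, 2 of the 8 genes were called higher in CB4856 and 0 lower. Over all 14858 genes tested, 16% were called higher and 17.9% lower at the same threshold. The median log2 difference was 0.09 over the 8 genes and -0.03 over all genes. The call on hsp-6 held under every alternative run, with adjusted p-values up to 0.016, the highest of them with batch as a replicate block. Without both parental libraries of batch 9, an alternative chosen after seeing the data, 4 of the 8 were called higher (hsp-6, hsp-60, lonp-1 and atfs-1), and 47.9% of all genes tested were then called in either direction.

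**Figure D2:**
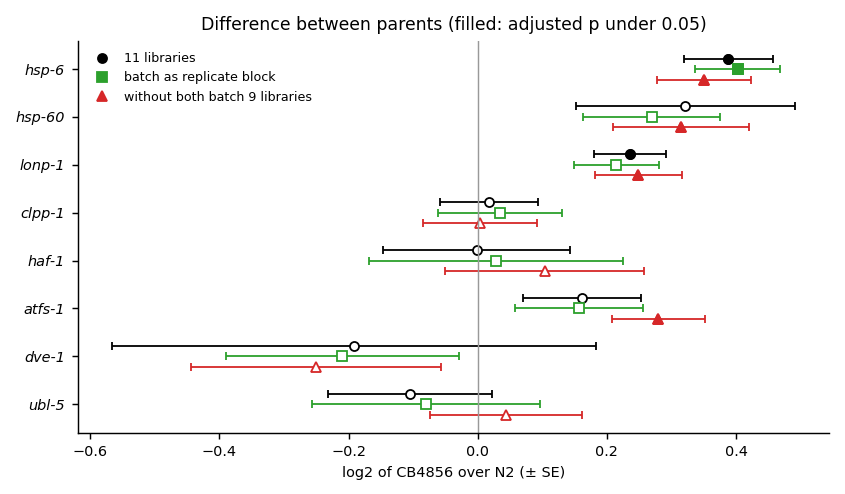
Log2 of CB4856 over N2 for each gene (x axis) with its standard error, in edgeR fits of the 11 parental libraries (circles), of the same libraries with batch as a replicate block (squares), and without both libraries of batch 9 (triangles). Filled symbols have an adjusted p under 0.05. The gene hsp-6 is filled in all 3 fits, and hsp-60 and atfs-1 are filled only without batch 9.

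Marker genes of several cell types differed between the parental libraries in the same fit, in which 16% of all genes were called higher in CB4856 and 17.9% lower. Of 11 oocyte markers 8 were higher in CB4856 and 0 lower, and of 18 sperm markers tested 16 were lower and 0 higher. Summed oocyte markers ranged from 9872.99 to 14982.2 CPM in N2 and from 13689.4 to 15844.4 in CB4856, and summed sperm markers from 354.5 to 1063 CPM in N2 and from 88.2 to 318.2 in CB4856. The sperm marker genes include the msp genes, which are near-identical copies, so their counts are uncertain. The N2 library of batch 9 had the highest oocyte sum and the lowest sperm sum of the 4 N2 libraries. Summed yolk markers, the vit genes, had a median of 33113.9 CPM in N2 and 44177.2 in CB4856. The stage of the animals is that of the labels and was not tested against these markers. Of 7 body wall muscle markers 3 were lower in CB4856 (mup-2, lev-11 and tnt-2) with a list median of -0.37 on the log2 scale, and of 17 moult and cuticle markers 2 were lower (nas-36 and nas-37) with a list median of -0.87. Component 1 separated the parents apart from the N2 library of batch 9, so a fit with it cannot fully tell strain from component. With component 1 as a covariate the log2 difference was 0.46 for hsp-6 (adjusted p 0.00197, edgeR), 0.20 for lonp-1 and 0.02 for atfs-1. The part of the muscle and moult differences in these values was not tested. Reads of CB4856 alleles that differ from the reference can be lost in mapping, and this was not tested either.

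The lines were set beside their parents to see how far a cross spreads these levels. In the lines, hsp-6 ranged from 434.3 CPM in QX492 to 820 CPM in QX540, with a median of 569.5. Of the 85 lines, 39 were above every N2 library and 67 were below every CB4856 library. Between the ranges of the parents lay 21 lines, while 8 were below both parents and 9 above both. By bins, 15 lines lay from 600 to 650 CPM, 4 from 650 to 700 and 10 from 700 to 750, and the evenness of the values was not tested. The widest step in the middle of the distribution was from 653.5 to 678.9 CPM, with 68 lines below it and 17 above, and it was a step of 3.89%. The widest step was larger for dve-1 (9.55%) and hsp-60 (4.1%), and from 1.91% (ubl-5) to 2.54% (lonp-1) for the others.

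For lonp-1 the lines ranged from 70.3 CPM in QX519 to 134.5 in QX536, with a median of 101.4. Of these, 44 lines were above every N2 library, 55 were below every CB4856 library, 18 were below both parents and 3 above both. The gene clpp-1, for which the parents were nearly equal, had 27 lines above both parents and 2 below both. For clpp-1 the lines spanned 20.05 to 31.4 CPM, with a median of 24.7. The widest range was that of dve-1, from 9.33 to 39.7 CPM (median 15.5), a 4.26-fold span. Next came hsp-60, from 167.6 CPM in QX503 to 603 in QX561 (median 435.8), a 3.6-fold span. The gene haf-1 spanned 3.03 to 7.99 CPM (median 5.39), atfs-1 76.3 to 141.5 (median 107.4) and ubl-5 9.18 to 17.1 (median 12.8). The lowest hsp-60 line and the highest dve-1 line, QX496, were both in batch 9.

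The mean of the lines was then set against the midpoint of the parents, and 0 of the 8 genes were called in edgeR, against 0.0364% (6) of 16500 genes. At an unadjusted p under 0.05 the count was also 0, against 7.66% of all genes, and DESeq2 gave 0. The lines minus the midpoint ranged from -0.09 for dve-1 (SE 0.155) to 0.08 for clpp-1 (SE 0.041, unadjusted p 0.0615) on the log2 scale. For hsp-6 it was -0.06 (SE 0.072), with line values of 588.4 ± 90.2 CPM (SD, n = 85).

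The spread among lines was compared with that among repeated parental libraries as a ratio of variances of log2 CPM, with no test. The ratio was 5.48 for lonp-1 and 4.37 for hsp-6, above 94% and 91.3% of the 16500 genes, whose median was 1.62. It was 2.44 for haf-1, 1.52 for atfs-1, 1.49 for clpp-1, 0.935 for hsp-60, 0.78 for ubl-5 and 0.516 for dve-1. For hsp-60, ubl-5 and dve-1 the lines varied less than the 11 repeated libraries of the parents. For lonp-1 and hsp-6 the SD of log2 CPM among lines was 0.172 and 0.225, below the median of 0.386 over all genes. Their SD within the parents was 0.0736 and 0.1075, so the high ratios go with a small spread among repeated libraries. With the mean of each batch removed from the lines the ratio was 4.31 for hsp-6 and 3.81 for lonp-1. The ratios depend on single parental libraries. Without the N2 library of batch 9 that of atfs-1 was 5.03, without the N2 library of batch 6 that of haf-1 was 4.78, and without the CB4856 library of batch 9 those of hsp-60 and dve-1 were 2.18 and 1.17. That of ubl-5 was 1.02 without the N2 library of batch 9, and that of clpp-1 was 2.66 without the CB4856 library of batch 6.

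Levels also moved with the batch. No line was in more than 1 batch, so lines and batches cannot be fully told apart, and 79.5% of 16030 genes were called between batches among the lines. Of the 8 genes 7 were called, and the exception was hsp-6, with an adjusted p of 0.305 in edgeR and batch means from 549 CPM in batch 9 to 615.6 in batch 4. Between batches lay 8.46% of the variance of hsp-6 among lines on the log2 scale, against a median of 25.3% over all genes.

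The strongest shifts were in batch 9. There hsp-60 was at 330.8 ± 71.6 CPM (SD, n = 14 lines), and batch means elsewhere were 405.8 to 475. Its parental libraries of batch 9 were also low, at 284.4 CPM in CB4856 and 294.9 in N2. The gene dve-1 was high there, at 25.6 ± 8.22 CPM (SD, n = 14 lines) against batch means of 12.5 to 18.5 elsewhere, with 39.6 CPM in CB4856 and 30.9 in N2. The adjusted p between batches was 2.21e-07 for hsp-60 and 1.03e-07 for dve-1 in edgeR, and both stayed called without batch 9. Between batches lay 45.4% of the variance of hsp-60 and 41.9% of that of dve-1. In batch 9 summed oocyte markers had a median of 14108.2 CPM over the lines and in the other batches 11847.1 to 13807.9, and the part of this in the shifts was not tested.

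The gene lonp-1 had its highest batch mean in batch 2, at 113.4 ± 12.4 CPM (SD, n = 7 lines), and its lowest in batch 8, at 92.0 ± 7.54 (SD, n = 19 lines), with an adjusted p of 4.77e-06 in edgeR. The gene atfs-1 was at 119 ± 9.02 CPM in batch 9 and 96.3 ± 10.8 in batch 6 (adjusted p 0.000213, edgeR). For clpp-1 the highest mean was 27.03 ± 2.08 CPM in batch 8 (adjusted p 0.000227, edgeR), for haf-1 it was 6.24 ± 0.973 in batch 3 (adjusted p 0.000741), and for ubl-5 the lowest was 11.1 ± 1.42 in batch 7 (adjusted p 0.00114). The call on clpp-1 was lost without the lines of batch 8 (adjusted p 0.181), and that on ubl-5 without those of batch 7 (adjusted p 0.393, edgeR). The call on haf-1 was lost with the first principal component as a covariate (adjusted p 0.595, edgeR).

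**Figure D3:**
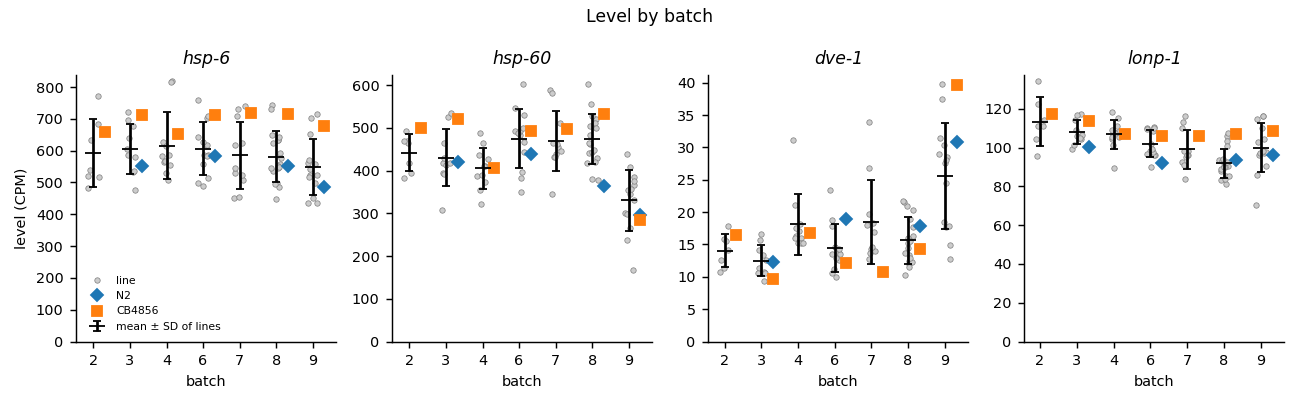
Level in CPM (y axis, linear from 0) of hsp-6, hsp-60, dve-1 and lonp-1 by batch (x axis). Grey points are lines, black bars their mean ± SD, blue diamonds N2 and orange squares CB4856. In batch 9 lines and both parents are low for hsp-60 and high for dve-1, and in each batch with both parents CB4856 is above N2 for hsp-6 and lonp-1.

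Whether the genes vary together among lines was asked with the batch means removed, so that only differences within a batch count. Of the 28 pairs, 12 passed a permutation test of Pearson's r with values permuted within batches (100000 resamples, two-sided, Benjamini-Hochberg adjusted over the 28 pairs, smallest possible p 1e-05). The 6 positive pairs were all the pairs among hsp-6, lonp-1, haf-1 and atfs-1, and the 6 negative pairs all had dve-1 in them. The share of all gene pairs that passes this test was not computed. Some of these r were near the median r of a gene of the pair over all genes. The median r over 8135 genes was 0.302 for atfs-1, 0.234 for lonp-1, 0.213 for haf-1, 0.144 for hsp-6 and -0.28 for dve-1. The closest pair was hsp-6 with lonp-1, with r = 0.638 and rho = 0.616 over the 85 lines (adjusted permutation p 7e-05). Within the 7 batches r ranged from 0.328 to 0.908, and without the 2 lines farthest from the median of hsp-6 it was 0.632. For hsp-6 with atfs-1 r was 0.58 and rho 0.542 (adjusted permutation p 7e-05), from 0.182 to 0.774 within batches and 0.512 without the farthest lines. Ordered by r with hsp-6 from the highest, lonp-1 held place 13 and atfs-1 place 57 of 8142 genes, while hsp-6 held place 708 in the order of lonp-1 and 2353 in that of atfs-1.

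The other positive pairs were atfs-1 with lonp-1 (r = 0.519, rho = 0.431), atfs-1 with haf-1 (r = 0.518, rho = 0.399), haf-1 with lonp-1 (r = 0.408, rho = 0.395) and hsp-6 with haf-1 (r = 0.302, rho = 0.205). Their adjusted permutation p-values were 7e-05, 7e-05, 0.0008 and 0.0222. In the order of atfs-1, lonp-1 held place 2854 and haf-1 place 2863 of 8142, and lonp-1 held place 2442 in that of haf-1. The other way round, atfs-1 held place 1747 in the order of lonp-1 and 1005 in that of haf-1. In the order of lonp-1, haf-1 held place 2849. For hsp-6 with haf-1 the places were 2597 in the order of hsp-6 and 3450 in that of haf-1. The pair hsp-6 with haf-1 missed the threshold by rank correlation and without the 2 farthest lines (r = 0.225). Within batch 2, with 7 lines, these pairs with haf-1 were negative, at -0.738 with hsp-6, -0.774 with atfs-1 and -0.617 with lonp-1. The negative pairs of dve-1 were with atfs-1 (r = -0.487, rho = -0.467), haf-1 (r = -0.443, rho = -0.435), ubl-5 (r = -0.4, rho = -0.362), lonp-1 (r = -0.355, rho = -0.433), hsp-6 (r = -0.349, rho = -0.319) and hsp-60 (r = -0.341, rho = -0.353). Their adjusted permutation p-values ran from 0.00014 to 0.0123. In the order of r with dve-1 these genes held places from 4430 (hsp-60) to 5667 (atfs-1) of 8142. In the orders of these genes, dve-1 was nearer the end, at places from 7121 (lonp-1) to 7895 (hsp-6). With batch means kept dve-1 with atfs-1 was at -0.139 (adjusted permutation p 0.29). The call on dve-1 with lonp-1 was lost without the lines of batch 7 (adjusted permutation p 0.0649), and that on dve-1 with hsp-60 without those of batch 9 (adjusted permutation p 0.0507). Not all batches shared the sign, and dve-1 with lonp-1 ran from -0.681 in batch 6 to 0.668 in batch 2.

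The reporters of the response, hsp-6 and hsp-60, had r = 0.262 and rho = 0.236 (adjusted permutation p 0.0516). Within batches r was between 0.00926 and 0.599, positive in all 7, and without the 2 farthest lines it was 0.165. With the batch means kept r was 0.336, which passed (adjusted permutation p 0.0044).

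Marker genes and the main axis of the lines moved with some of these genes. The first principal component of the lines was computed from 2000 genes of high variance, none of them among the 8, and held 21.1% of their variance. Of 32 relations between a gene and this component or a summed marker list, the largest was atfs-1 with oocyte markers, at r = 0.752 and rho = 0.706 (adjusted permutation p 3.2e-05). For lonp-1 it was r = 0.576 and rho = 0.457, for haf-1 r = 0.527 and rho = 0.423, for hsp-6 r = 0.354 and rho = 0.308, and for dve-1 r = -0.643 and rho = -0.756. For ubl-5 it was r = 0.277 and rho = 0.28 (adjusted permutation p 0.0487). No relation passed for hsp-60 or clpp-1, whose lowest adjusted permutation p-values were 0.0889 and 0.157. With component 1 itself r was -0.688 for atfs-1, 0.651 for dve-1, -0.544 for haf-1 and -0.503 for lonp-1. It was -0.332 for ubl-5 and -0.301 for hsp-6. The share of all genes related to the oocyte sum was not computed. With moult and cuticle markers 1 of the 8 genes passed, atfs-1 at r = -0.317 and rho = -0.486 (adjusted permutation p 0.00401). By rank the unadjusted permutation p was also under 0.05 for hsp-6 (rho = -0.328), dve-1 (0.329), haf-1 (-0.259) and lonp-1 (-0.224). In the parents this sum was mostly the collagen gene col-19, at 1998 CPM in N2 beside a median sum of 2349.6 CPM. The log2 difference of col-19 between parents was 0.08, so the sum says little about the other markers of the list. Within batches the relation of atfs-1 to oocyte markers ran from 0.0078 to 0.91 and that of dve-1 from -0.902 to -0.186. Those of lonp-1 (-0.646 to 0.843), hsp-6 (-0.387 to 0.656) and haf-1 (-0.0894 to 0.855) changed sign between batches. Without the 2 lines farthest from the median of the oocyte sum, r was 0.717 for atfs-1 and -0.725 for dve-1. It was then 0.417 for haf-1, 0.376 for lonp-1 and 0.226 for hsp-6. With component 1 removed, 2 of the 28 pairs passed, hsp-6 with lonp-1 at r = 0.591 and hsp-6 with atfs-1 at r = 0.539 (adjusted permutation p 0.00014 each). The same 2 pairs passed with the oocyte marker sum removed instead, with r of at least 0.509 each, an alternative chosen after seeing the data. The pair dve-1 with atfs-1 was at -0.07 with component 1 removed and at -0.0076 with the oocyte sum removed.

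**Figure D4:**
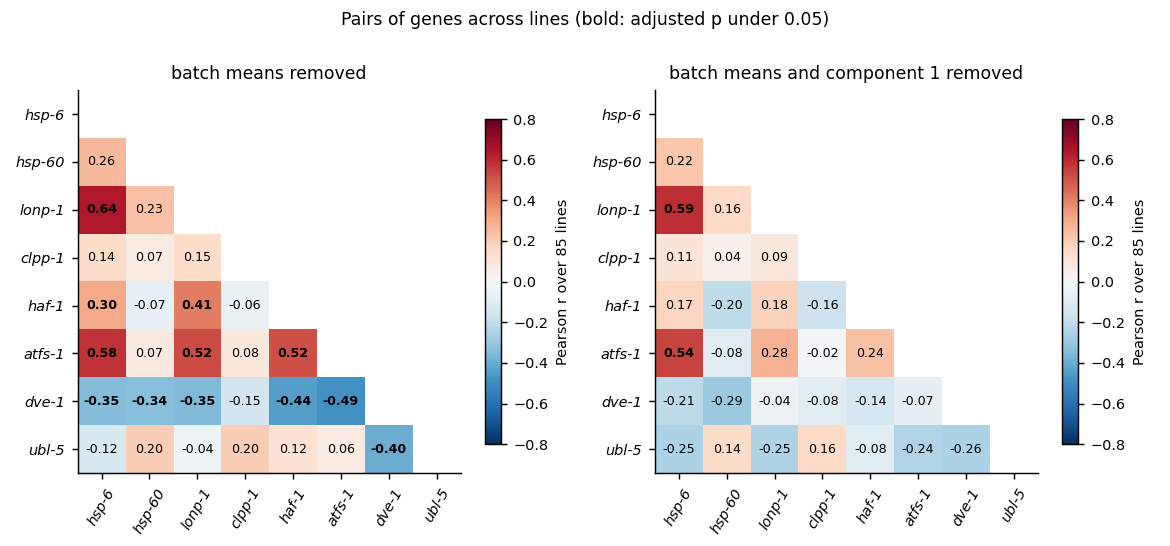
Pearson r over the 85 lines for the 28 pairs, with batch means removed (left) and with batch means and component 1 removed (right). Colour gives r from blue (negative) to red (positive), and bold values have an adjusted permutation p under 0.05, 12 on the left and 2 on the right.

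**Figure D5:**
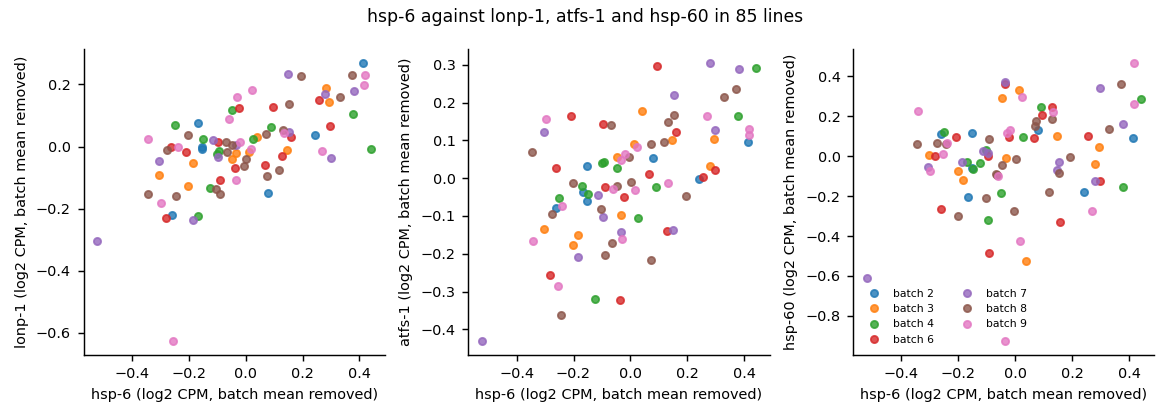
Log2 CPM of hsp-6 with the batch mean removed (x axis) against that of lonp-1, atfs-1 and hsp-60 (y axes) in the 85 lines, coloured by batch. The points rise together for lonp-1 (r = 0.638) and atfs-1 (r = 0.58) and scatter widely for hsp-60 (r = 0.262).

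The genes whose levels among lines were most like each of the 8 were found among 8135 genes as a description, with no test, since genes of a library share its depth and its batch. For hsp-6 they were tufm-1, the mitochondrial elongation factor Tu (r = 0.819, 0.708 to 0.9 within batches), ego-1, an RNA-directed RNA polymerase of the germ line (r = 0.701), and tin-44, a subunit of the import motor that holds mitochondrial Hsp70 at the inner membrane (r = 0.7). Within batches r ran from 0.541 to 0.883 for ego-1 and from 0.366 to 0.845 for tin-44. The median r of hsp-6 with all 8135 genes was 0.144. In the parents tufm-1 was at 251.5 ± 25.4 CPM in N2 (SD, n = 4) and 233.7 ± 16.18 in CB4856 (SD, n = 7), with a log2 difference of -0.07 (SE 0.076, adjusted p 0.52, edgeR). For hsp-60 they were Y55F3AM.13 (r = 0.675), hsp-110, a cytosolic chaperone gene (r = 0.66), and the translation initiation factor gene eif-3.L (r = 0.655). Within batches these ran from 0.102 to 0.891, from 0.158 to 0.871 and from 0.166 to 0.819. The neighbour of hsp-60, Y22D7AL.10, which encodes the co-chaperonin of the HSP-60 chamber, starts on the other strand 812 bases away. Its r with hsp-60 was 0.433, place 249 of 8142 genes, and its own difference between parents was -0.09 on the log2 scale (adjusted p 0.542, edgeR).

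For lonp-1 the most alike were cdc-48.3 (r = 0.81), rmh-1 (r = 0.808) and T05H10.1 (r = 0.806). For clpp-1 they were sftd-3 (r = 0.639), asna-1 (r = 0.61) and hint-1 (r = 0.605), and for haf-1 pak-1 (r = 0.695), T20F7.1 (r = 0.69) and taf-3 (r = 0.683). For atfs-1 they were the germline regulator genes lin-41 (r = 0.853) and lst-1 (r = 0.852) and the ubiquitin conjugation gene ubc-25 (r = 0.851). The median r of atfs-1 over all genes was 0.302. Within batches its r with lin-41 ran from 0.433 to 0.941, with lst-1 from 0.0488 to 0.942 and with ubc-25 from 0.702 to 0.909. For dve-1 they were Y43E12A.2 (r = 0.846), pes-4 (r = 0.828) and B0302.5 (r = 0.811), with a median of -0.28. For ubl-5 they were lsm-7 (r = 0.671), baf-1 (r = 0.665) and pfd-2 (r = 0.661). The lowest r within a batch was 0.133 for ubl-5 with baf-1, and for clpp-1 with asna-1 it was 0.136.

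Other genes of the pathway were taken from lists of names. Beside each count of such a list stand the 16% of all 14858 genes called higher in CB4856 and the 17.9% called lower. Of 13 genes that signal or remodel chromatin in the response, 7 were called higher in CB4856 and 2 lower, with a median log2 difference of 0.22. They include lin-65, a chromatin factor that acts with DVE-1, at 43.5 ± 2.94 CPM in N2 and 61.98 ± 6.28 in CB4856 (log2 difference 0.55, adjusted p 0.000734, edgeR). The gene ulp-4, whose product removes SUMO from DVE-1 and ATFS-1, was at 127 ± 9.1 and 154.6 ± 7.46 CPM (0.32, adjusted p 0.00596), and the acetyltransferase gene cbp-1 at 191.1 ± 17.7 and 231.6 ± 20.4 CPM (0.31, adjusted p 0.0131). The transcription factor gene atf-4 was lower in CB4856, at 92.7 ± 21 CPM in N2 and 57.8 ± 4.84 in CB4856 (-0.64, adjusted p 0.003, edgeR). With batch as a replicate block 3 of the 13 were called, namely lin-65, met-2 and atf-4, against 14.9% of all genes. Without the N2 library of batch 8 it was 3, against 21.5% of all genes, and without that of batch 6 it was 4, against 22.4%.

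Of 16 other mitochondrial chaperone and import genes 1 was called higher in CB4856 and 2 lower, with a median of -0.05. Over all genes 16% were called higher and 17.9% lower. The import motor gene tin-44 was higher (0.16, adjusted p 0.0397), and the channel gene timm-23 (-0.28, adjusted p 0.0114) and the small carrier gene tin-13 (-0.26, adjusted p 0.013) were lower in edgeR. None of these 3 calls held with batch as a replicate block (0 of 16), and with component 1 as a covariate only tin-13 did. The prohibitin genes phb-1 and phb-2 were at -0.02 and 0.09 (adjusted p 0.862 and 0.29, edgeR). Of 8 other mitochondrial proteases 2 were higher and 0 lower, namely ymel-1 of the inner membrane (0.34, adjusted p 0.00329, edgeR) and ppgn-1 (0.24, adjusted p 0.0254). The call on ymel-1 held with batch as a replicate block and that on ppgn-1 did not, and 1 of the 8 was called with component 1 as a covariate and without single libraries (N2 of batch 6, 8 or 9, CB4856 of batch 3 or 4). The protease gene spg-7, whose knockdown is used to induce the response, was at 0.03 (adjusted p 0.773, edgeR).

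Of 15 respiratory chain and related genes whose loss induces the response, 0 were higher and 3 lower in CB4856, against 16% and 17.9% of all genes. These were cox-4 (-0.23, adjusted p 0.0255), atp-5 (-0.24, adjusted p 0.0355) and clk-1 (-0.23, adjusted p 0.0429, edgeR), and 0 of the 15 passed with batch as a replicate block, with component 1 as a covariate, or without the N2 library of batch 3, 6 or 8. The count was 1 without the CB4856 library of batch 2 or 6, with RLE size factors and with no filter on low counts, and 2 with DESeq2. It rose to 4, all lower and with isp-1 added, without the CB4856 library of batch 3, 4 or 8 (29.1%, 30% and 30.7% of all genes called). A filter at a mean of at least 1 log2 CPM gave the same 4. Of 11 protein genes of mitochondrial DNA tested 0 were higher and 2 lower, ND1 (-0.57, adjusted p 0.00403, edgeR) and WBGene00010961 (-2.15, adjusted p 0.00467, edgeR). Of 10 genes of mitophagy and mitochondrial dynamics 2 were higher and 0 lower, the transport gene miro-1 (0.51, adjusted p 0.000797) and the mitofusin gene fzo-1 (0.33, adjusted p 0.00495, edgeR). The call on fzo-1 was lost with batch as a replicate block. The count was 4 without the N2 library of batch 3, 5 without that of batch 9 and 5 without both batch 9 libraries. In these fits 32.8%, 43.2% and 47.9% of all genes were called. Of 15 chaperone and stress genes of the cytosol and endoplasmic reticulum 1 was lower, xbp-1 (-0.36, adjusted p 0.0489, edgeR), and 0 were higher. With RLE size factors and with DESeq2 the 1 gene called was instead pdi-1, higher in CB4856. Without the N2 library of batch 3 it was ire-1, higher, and without the CB4856 library of batch 2 it was hsp-16.41, lower. The count was 0 without the N2 library of batch 8 or the CB4856 library of batch 3, 6, 7 or 8, and with no filter on low counts, and 2 with batch as a replicate block. Without the N2 library of batch 9 it was 2, both higher, and without the CB4856 library of batch 9 it was 2, 1 in each direction. Without both it was 3, all higher. In these fits 43.2%, 36% and 47.9% of all genes were called.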

How the data were processed

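RNA of whole animals labelled L4 was sequenced in 96 libraries (N2, CB4856 and 85 lines). The deposited files hold whole-number read counts per gene that the authors did not normalise; the submitters' processing notes name STAR 2.73a, FastQC and DESeq2, and the build WBcel235. The annotation release is not given in the sources used here. Column 2, which ignores strand, was used, since sense and antisense columns held similar totals (ratio 0.957 to 1.04). Rows that name no gene held 7.43% of reads on average and stayed out of library sizes and tests. Comparing each of the 4560 pairs of libraries, chi-square was never under 6.93 per degree of freedom, and each library was counted as 1 sample. Intervals and tests cover the spread between libraries, at 23329114 ± 430477 counts each (SD, n = 96).

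The test was that of edgeR 4.0.16, run in R 4.3.3 (filterByExpr, TMM, robust quasi-likelihood F test, two-sided, Benjamini-Hochberg adjustment over all genes tested, threshold 0.05), with DESeq2 1.42.0 as an alternative. Parents were compared in their 11 libraries, batches among the lines, and lines against the parental midpoint in all 96. Correlations used log2 CPM with a prior count of 2, which shrinks the differences of low genes. Other alternatives changed the scaling, the filter on low counts, the covariates and the libraries left out. The fits, the correlations and the variance ratio were tested on simulated data.

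The batch number in the titles marks a shared batch, so it pairs the parental libraries of batches 3, 6, 8 and 9. The correlations of their deviations from the strain means were 0.299, 0.081, 0.569 and 0.147.

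The genes, lists and tests were chosen with earlier results of these data known. From each list the called genes with the smallest adjusted p are named, at most 4 a list, with Y22D7AL.10, spg-7, ymel-1, phb-1 and phb-2, and for each of the 8 genes the 3 with the highest r among genes with a mean of at least 3 log2 CPM. Before their values were read, 6 genes of uncertain membership were taken off the lists (trap-1, ucr-1, lonp-2, nhr-80, rheb-1 and hlh-30), and 3 listed names matched no symbol. Symbols and positions come from the Ensembl annotation of WBcel235.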

Additional observations from a re-analysis of the deposited data

Results flagged for a closer look

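Each of the 16 sets of parental libraries (8 genes in N2 and in CB4856) was searched for a library far from the others of its strain by Dixon's gap test, and chance gives about 1 in 20 such sets. It marked 2 libraries, both of batch 9. For dve-1 the CB4856 library of batch 9 was at 39.59 CPM and the other CB4856 libraries lay between 9.67 and 16.8 CPM, a gap of 0.763 of the whole range. For ubl-5 the N2 library of batch 9 was at 16.56 CPM and the other 3 lay between 12.7 and 12.8 CPM, a gap of 0.978 of the range.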

How the results depend on the processing

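The count of genes called between N2 and CB4856 was 1 with batch as a replicate block, 1 with component 1 as a covariate and 4 without both batch 9 libraries, in place of 2. It ranged from 2 to 3 when single parental libraries were left out. The replicate block changed no other call of the 8 genes. Over the 7 pathway lists 22 of 88 genes tested were called (25%, and 33.9% of all genes), 10 with the replicate block (11.4%, and 14.9% of all genes), 10 with component 1 as a covariate (11.4%, and 16.9% of all genes), and between 10 and 25 when single parental libraries were left out, lowest without the N2 library of batch 8 and 13 without that of batch 6. Of the 28 pairs, 19 passed with RLE size factors (13 positive), 2 with component 1 removed and 2 with the oocyte marker sum removed, in place of 12. The pair hsp-60 with atfs-1 turned from r = 0.07 to -0.256 with batch means kept (adjusted permutation p 0.0405), and dve-1 with lonp-1 turned from -0.355 to 0.0242 with the oocyte sum removed (adjusted permutation p 0.888). The median variance ratio of the 8 genes was 1.5, 1.13 with batch means removed, 1.83 with RLE size factors, and 1.34 to 2.39 when single parental libraries were left out. The cause of these changes was not tested. Values that missed the threshold in both settings changed sign in 17 cases between parents, 24 against the midpoint and 25 among pairs, with sizes up to 0.103, 0.0822 (log2) and 0.24 (r). Calls between batches numbered 6 or 7 and calls against the midpoint 0 under every alternative run. Depth limits haf-1, with 70 to 187 reads in a line, more than the others.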

Other observations

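Some lines stood at the ends of the range for several of the 8 genes. QX563 of batch 4 was among the 5 highest lines for hsp-6, atfs-1 and lonp-1, and QX580 of batch 8 was among the 5 lowest for hsp-6, haf-1 and lonp-1. QX540 of batch 4 was highest of the 85 lines for both hsp-6 (820 CPM) and atfs-1 (141.5 CPM), while its lonp-1 level (105.4 CPM) held place 54 from the lowest. QX596 of batch 8 was highest for ubl-5 (17.1 CPM) and clpp-1 (31.4 CPM) and among the 5 lowest for atfs-1 (78.8 CPM), haf-1 (3.67 CPM) and lonp-1 (83.7 CPM). QX503 of batch 9, lowest for hsp-60 (167.6 CPM), held place 74 for atfs-1 (121.1 CPM) and 22 for hsp-6 (522.7 CPM). QX519 of batch 9 was lowest for lonp-1 (70.3 CPM) and held place 84 for ubl-5 (16.7 CPM). These lines were chosen by their values, each has 1 library, and no test was made.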
